A study of Mus musculus with 34 samples.

Results

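NADPH oxidases are membrane enzymes that pass electrons from NADPH to oxygen and so make superoxide or hydrogen peroxide. The genes described here are 6 subunits of these enzymes: Nox4, Cyba, Cybb, Ncf1, Ncf4 and Rac2. They were chosen by name from the 37583 genes of the files, with earlier results of the same mRNA comparison known, in which Nox4 stood out. Their mRNA differences are therefore given as a description, and nothing is read from the count of members called in the test over all genes. All 6 were found by symbol and passed the filter on low values.

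The libraries were made from liver of F1 mice (C57Bl6/CBA) at 45 days of age. The animals labelled knockout (KO) carried a floxed Setd8 allele and the Alb-Cre transgene (Setd8lox/lox-Alb-Cre), and those labelled wild type (WT) were the comparison. Setd8 encodes a histone H4 lysine 20 methyltransferase, and Alb-Cre uses the albumin promoter, which is active in hepatocytes, so that leukocytes, stellate cells and endothelial cells of the KO liver should keep the gene. Messenger RNA was sequenced in 3 KO and 3 WT libraries. Newly made RNA was sequenced in 1 KO and 1 WT library by each of 2 methods: labelling in the animal with ethynyl uridine (EU, 25 mg per kg for 30 min) and incorporation of bromouridine by isolated nuclei (Br, a 3 min run-on). Not analysed here were 24 samples of chromatin and input. The labels number the replicates without naming the animals, so the spread between libraries may be technical in part.

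The mRNA values are reads that the authors scaled between the 6 libraries and rounded, and between 15644211 and 27108677 reads per library were re-estimated from the rounding. WT replicate 3 stood apart from the other libraries, at 121.5 on the first principal component against -46.2 to -6.11, and had 20077 genes above 0 against 24497 to 26247. Setd8 itself had 1199, 1040 and 1075 in the KO libraries and 593, 615 and 1076 in the WT libraries. Setd8 was thus not lower in KO (log2 difference 0.59, SE 0.25, limma adjusted p = 0.244). The floxed stretch is an exon, while the values count the whole gene and all liver cells, so this checks the genotype weakly, and KO and WT are the labels of the libraries. Of 5 hepatocyte markers (Alb, Ttr, Apoa1, Hnf4a and Tat), none was called by limma (1 with an unadjusted p under 0.05, none by edgeR and 1 by DESeq2), and their summed value was 1673077 to 1864312 in KO and 1666523 to 2629946 in WT. EU libraries held 5583983 reads in KO and 10833287 in WT, and Br libraries held 2317840 in KO and 3156055 in WT.

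The oxidases share a core that sits in the membrane and differ in how it is switched on. Cybb encodes NOX2, the catalytic subunit of phagocytes, which stays silent until cytosolic subunits join it. Nox4 encodes a homologous catalytic subunit that is active without those cytosolic subunits, releases mainly hydrogen peroxide, and is known in the liver from hepatocytes and stellate cells. Cyba encodes p22phox, the membrane partner that both NOX2 and NOX4 need. Ncf1 (p47phox) organises the cytosolic subunits of the phagocyte enzyme, Ncf4 (p40phox) ties them to membrane lipids, and Rac2 is the small GTPase of blood cells that completes the active complex. Cybb, Ncf1, Ncf4 and Rac2 are made chiefly by cells of the blood lineage.

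RefSeq promoter sequences (GRCm38.p6) were at hand for Nox4, Cyba, Cybb and Ncf1, 4 of the 6 genes. Those of the homologous catalytic subunits are shown, because their mean mRNA differences between KO and WT had opposite signs. Each is the 250 bases before the RefSeq transcript start, read in the direction of the gene: chr7:87246399-87246648 on the plus strand for Nox4 and chrX:9469325-9469574 on the minus strand for Cybb. Capitals mark matches, on either strand, to motifs of factors known from myeloid or liver genes: GAGGAA (PU.1), CCAAT (NF-Y), TGANTCA (AP-1) and GTTAAT (HNF1).
Nox4: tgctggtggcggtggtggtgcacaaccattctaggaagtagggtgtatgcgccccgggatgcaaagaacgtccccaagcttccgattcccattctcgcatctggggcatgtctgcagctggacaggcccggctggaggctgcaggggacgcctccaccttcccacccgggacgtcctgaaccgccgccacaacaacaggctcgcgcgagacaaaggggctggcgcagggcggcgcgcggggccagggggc
Cybb: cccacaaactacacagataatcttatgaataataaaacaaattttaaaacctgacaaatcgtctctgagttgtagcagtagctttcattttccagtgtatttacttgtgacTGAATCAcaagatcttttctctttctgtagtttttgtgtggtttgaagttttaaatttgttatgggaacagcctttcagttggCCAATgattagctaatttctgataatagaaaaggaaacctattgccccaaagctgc
The Cybb window held 1 CCAAT, at bases -56 to -52 before the start, and 1 TGANTCA, at bases -139 to -133. N stands for any base and was A in this match, and binding of a factor was not tested. CCAAT was found in 33.8% and TGANTCA in 6.75% of all 32851 windows of the same length. GAGGAA, found in 23.3% of them, and GTTAAT, found in 6.43%, did not occur in the Cybb window. None of the 4 motifs occurred in the windows of Nox4, Cyba and Ncf1. None of them overlapped another in the Cybb window. The bases just after the window were found in an annotated transcript of the gene for Nox4, Cybb and Ncf1, and not for Cyba. The place of the Cyba window is therefore less sure.

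Nox4 mRNA was close to the lower limit of these libraries in KO liver and well detected in WT liver. Its scaled values were 9, 7 and 19 in the KO libraries and 217, 301 and 756 in the WT libraries. The groups were far apart, and within WT it was replicate 3, the library that stands apart, that was highest. The KO values rest on 10, 10 and 15 re-estimated reads, with 95% Poisson intervals of 4.80 to 18.4, 4.80 to 18.4 and 8.40 to 24.7, against 183, 315 and 664 reads in WT. Nox4 averaged 11.7 ± 6.43 in KO and 425 ± 290 in WT (SD, n = 3 each), which is 31.5-fold lower as fitted on value plus 1, with a fitted log2 difference of -4.98 (SE 0.54). Among genes tested, 6 of 16813 had a lower log2 difference. With a library left out the fall ran from 21.9-fold to 41.1-fold, the smallest of these without WT replicate 3. In bulk liver, fewer cells of a type and less RNA per cell cannot be told apart.

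The membrane partner Cyba had 235, 229 and 96 in the KO libraries and 134, 78 and 48 in the WT libraries. KO replicate 3 lay within the WT range. Cyba averaged 187 ± 78.6 in KO and 86.7 ± 43.7 in WT (SD, n = 3 each), and its fitted log2 difference was 1.11 (SE 0.47). The mean of the partner that NOX4 needs was thus higher in KO, where Nox4 was lower.

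Cybb, the phagocyte catalytic subunit, had 251, 511 and 202 in the KO libraries and 132, 137 and 206 in the WT libraries. KO replicate 2 stood above all others, and KO replicate 3 was just under WT replicate 3. Cybb averaged 321 ± 166 in KO and 158 ± 41.4 in WT (SD, n = 3 each). Its fitted log2 difference was 0.93 (SE 0.37) and was 0.54 without KO replicate 2, the lowest with any library left out.

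The cytosolic subunits differed less evenly. Ncf1 had 84, 105 and 69 in the KO libraries and 63, 55 and 90 in the WT libraries, with overlapping groups and a log2 difference of 0.32 (SE 0.31). Ncf4, the lowest of the 6 per kilobase in WT, had 73, 62 and 22 in KO and 36, 31 and 8 in WT, also overlapping, with a log2 difference of 1.11 (SE 0.67). Rac2 had 225, 323 and 130 in KO and 135, 104 and 198 in WT, again overlapping, with a log2 difference of 0.59 (SE 0.38).

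Of the 6 members, limma called 1 lower in KO, Nox4, where 1.36% of all genes tested were called lower, and none higher, where 1.35% were. Called in either direction were 2.71% of all genes. Among the members 3 had an unadjusted p under 0.05, and edgeR and DESeq2 on re-estimated reads also called Nox4 alone. KO and WT did not overlap for Nox4, as for 12.8% of genes lower in KO, and no member was higher without overlap, as 13.2% of genes were. The members were chosen with this comparison known, so nothing is read from these counts. The median log2 difference was 0.76 over the 6 members and 0.0023 over all genes tested.

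**Figure D1:**
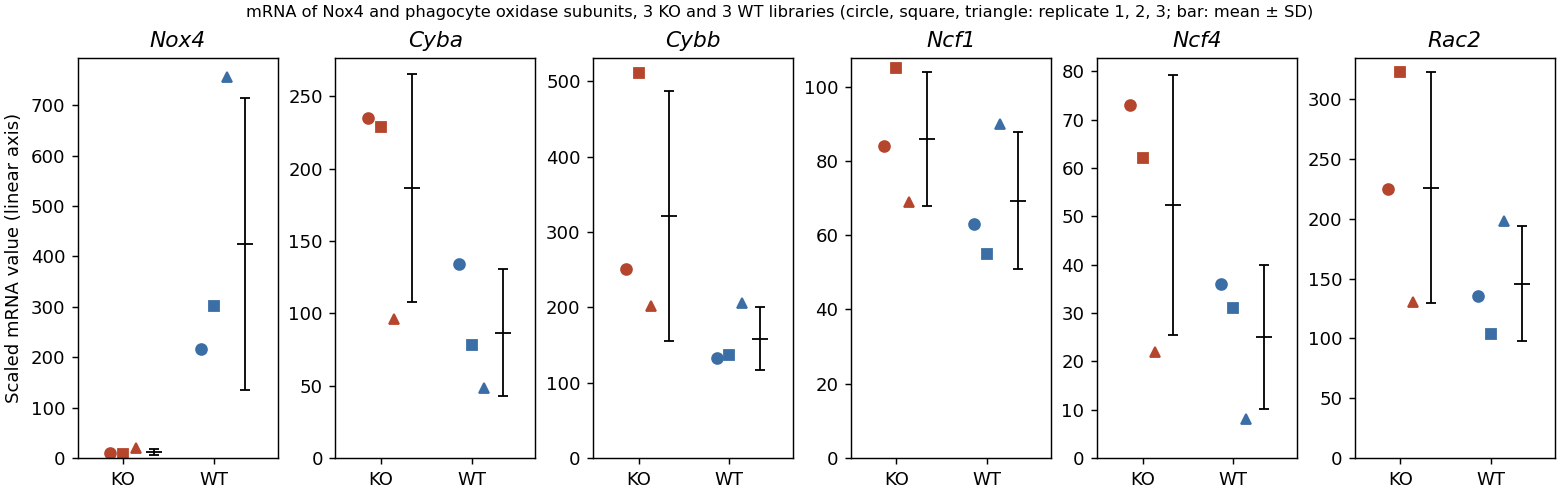
Scaled mRNA value (linear axis, own scale for each gene) of the 6 members in 3 KO and 3 WT libraries, with replicate 1, 2 and 3 as circle, square and triangle and the mean ± SD beside them. Nox4 lies at 7 to 19 in KO and 217 to 756 in WT, while the 5 other genes overlap between the groups and have KO replicate 3 as the lowest KO library.

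Per kilobase of annotated exon, which allows levels to be set between genes, the order differed between KO and WT. In KO liver the level per kilobase was 180 ± 75.6 for Cyba, 72.8 ± 31.1 for Rac2, 55.3 ± 28.6 for Cybb, 25.9 ± 13.3 for Ncf4, 23.5 ± 4.94 for Ncf1 and 1.38 ± 0.76 for Nox4 (SD, n = 3). In WT liver it was 83.4 ± 42.0 for Cyba, 50.1 ± 34.2 for Nox4, 46.9 ± 15.4 for Rac2, 27.3 ± 7.12 for Cybb, 18.9 ± 5.01 for Ncf1 and 12.4 ± 7.39 for Ncf4. Nox4 was thus second in WT and last in KO. Its second place rests on WT replicate 3. Without that library the WT means were 259 for Nox4 (8471 exon bases) and 119.5 for Rac2 (3103 exon bases), which puts Rac2 above Nox4 per kilobase. Neighbours in the KO order differed by more than the larger of their SDs between Cyba and Rac2, Cybb and Ncf4, and Ncf1 and Nox4, and not between Rac2 and Cybb or Ncf4 and Ncf1. In the WT order they did so between Rac2 and Cybb and between Cybb and Ncf1, and not elsewhere. Exon lengths come from a later annotation than the counts, and the counter was not given in the sources used here. Ncf1 and Cyba each overlap 1 gene on the opposite strand in that annotation (Gtf2ird2 and Gm20388), and Rac2 resembles Rac1 and Rac3 in sequence, so reads of these genes may be shared.

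Across the 6 libraries Cybb varied most like Rac2 and Ncf1 among the members. Pearson's r of the log2 values was 0.911 with Rac2, 0.890 with Ncf1, 0.556 with Cyba and 0.383 with Ncf4, and -0.707 with Nox4. These are descriptions over 6 libraries that share the split into KO and WT. Among 12293 genes with a mean value of at least 50, those most like Nox4 included Cyp2d9 (a cytochrome P450, r 0.997), Osbpl2 (an oxysterol-binding protein relative, 0.995), Baat (which conjugates bile acids, 0.995) and ENSMUSG00000090962 (0.994). Cyp2d9 had 28020, 28287 and 32401 in KO and 48572, 51716 and 56605 in WT, without overlap. Those most like Cybb were Gm14388 (r 0.986), Il10rb (a subunit of the interleukin 10 receptor, 0.984), Eef1akmt2 (0.980), Polk (DNA polymerase kappa, 0.977) and Lbr (the lamin B receptor, 0.976). Il10rb had 182, 274 and 140 in KO and 97, 100 and 158 in WT.

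Within the KO libraries the summed values of the 5 members of the phagocyte enzyme and of the macrophage markers had the same order, which they did not within WT. The 5 (Cyba, Cybb, Ncf1, Ncf4 and Rac2) summed to 868, 1230 and 519 in the KO libraries and 500, 405 and 550 in the WT libraries. A list of 14 macrophage markers (Clec4f, Vsig4, Timd4, Cd5l and Marco of Kupffer cells among them) summed to 22339, 28540 and 13061 in KO and 10826, 9118 and 9375 in WT. KO replicate 2 was highest and KO replicate 3 the lowest KO library in both sums. The order was not particular to macrophage markers. In KO it was also that of the summed leukocyte (1085, 1414 and 605), lymphocyte, neutrophil and trigger receptor lists, and not that of the stellate, endothelial, hepatocyte and other lists. Re-estimated reads had the same order, with 20988135, 27108677 and 15644211 in KO replicates 1, 2 and 3. All 5 members and 11 of the 14 markers were lowest in KO replicate 3 among the KO libraries. Cyba and Ncf4 were highest in KO replicate 1, and Cybb, Ncf1 and Rac2 in KO replicate 2.

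Set against the markers, the 5 members differed less in mean between the groups. They amounted to 3.89, 4.31 and 3.97 per 100 of the macrophage marker sum in KO and 4.62, 4.44 and 5.87 in WT, on average 4.06 ± 0.22 in KO and 4.98 ± 0.78 in WT (SD, n = 3 each). In this ratio every KO library lay below every WT library. The sums of the 5 members themselves overlapped between the groups, with the higher mean in KO. Against 4 markers of all leukocytes (Ptprc, Laptm5, Coro1a and Cd53) the 5 members amounted to 84.3 ± 3.74 per 100 in KO and 81.1 ± 8.15 in WT, which differ by less than their spread. The sums without this scaling were 1.80-fold higher in KO for the 5 members, 2.18-fold for the macrophage markers and 1.73-fold for the leukocyte markers. How far cell number accounts for the members' values was not tested.

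**Figure D2:**
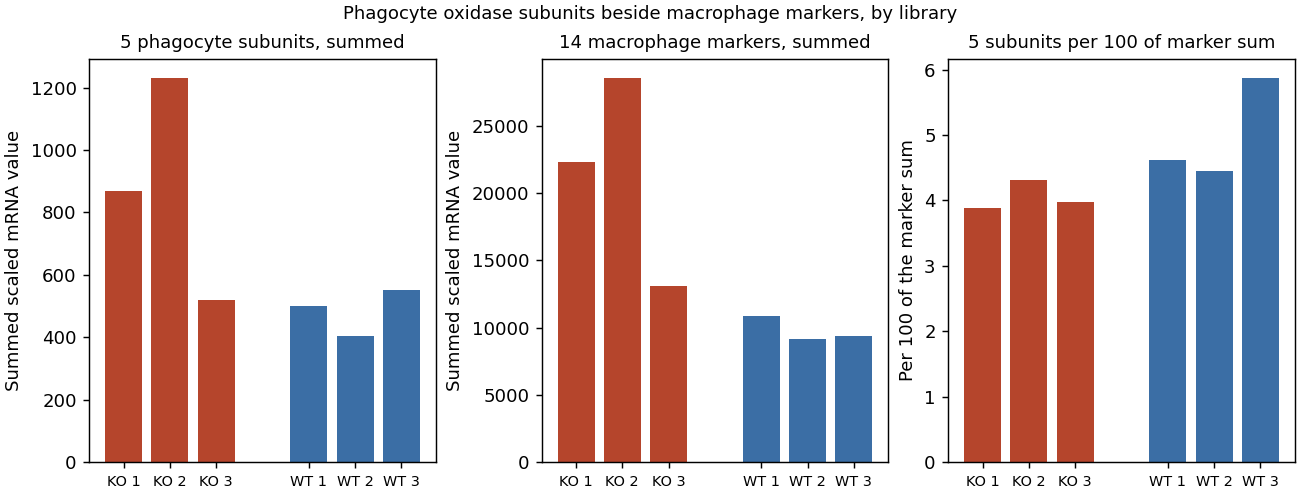
Summed scaled mRNA value of the 5 phagocyte oxidase subunits (left), of 14 macrophage markers (middle) and the first per 100 of the second (right), each bar 1 library. Both sums in KO replicates 1 and 2 exceed those of all WT libraries. KO replicate 3 does so for the markers (13061) and not for the 5 subunits (519). The ratio lies between 3.89 and 4.31 in the KO libraries and between 4.44 and 5.87 in the WT libraries.

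All 14 macrophage markers had a higher mean log2 value in KO, with a median log2 difference of 1.28. Of these Csf1r (the receptor for colony-stimulating factor 1) rose 3.14-fold (limma adjusted p = 0.0381) and 13 did not pass, with 12 of 14 at an unadjusted p under 0.05. edgeR called 2 of them and DESeq2 9, limma called 6 without WT replicate 3, 2 without KO replicate 3 and none without any of the other 4 libraries. Over all 16813 genes tested, edgeR called 238 higher and 234 lower in KO, and DESeq2 888 higher and 922 lower. limma called 797 genes higher without WT replicate 3 and 162 without KO replicate 3. Groups did not overlap for 9 of the 14, all higher in KO, where 13.2% of all genes tested were higher without overlap. So were 5 of 12 stellate cell markers, 4 of 8 endothelial markers and 4 of 12 receptors and adaptors that trigger the oxidase. None of the 4 leukocyte markers was. Of 11 neutrophil markers, 6 passed the filter on low values and none was called by limma or edgeR (3 at an unadjusted p under 0.05, 1 called lower by DESeq2). limma called Cxcr2 lower without WT replicate 1 and Ltf lower without WT replicate 3, where 77 and 869 of all genes tested were called lower. Others of the list went the other way. Ngp had 17, 19 and 10 in KO and 4, 2 and 0 in WT. S100a8 had 20, 22 and 10 in KO and 1, 7 and 6 in WT. Of the 6 tested, 3 had a higher and 3 a lower mean log2 value in KO. Of the 11, 3 were higher and 1 lower in KO without overlap. The 11 summed to 140 to 296 in KO and 273 to 593 in WT, and the defining genes Ly6g, Mpo and Elane stayed under 10 in every library. Of 6 monocyte markers none was called by limma or edgeR (1 at an unadjusted p under 0.05, 1 called lower by DESeq2), with sums of 15085 to 21480 in KO and 13743 to 17047 in WT, nearly all of it Fn1, which hepatocytes also make. Of 12 lymphocyte markers, 11 were tested and none was called by limma, edgeR or DESeq2 (none at an unadjusted p under 0.05), with sums of 184 to 384 in KO and 166 to 285 in WT.

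Stellate cells are a known source of Nox4 outside hepatocytes. Of 12 stellate cell markers, Pdgfrb (a receptor for platelet-derived growth factor) rose 2.56-fold (limma adjusted p = 0.0209) and 11 did not pass, and the list summed to 11428 to 13184 in KO and 6228 to 7703 in WT. limma called 3 of the 12 higher without WT replicate 3 and none without any of the other 5 libraries, and DESeq2 called 3 higher. Of all 16813 genes tested, limma called 797 higher without WT replicate 3, and DESeq2 called 888 higher. The median log2 difference of the list was 0.77. What part the number of stellate cells has in the Nox4 values was not tested. None of 8 endothelial markers was called by limma or edgeR (4 at an unadjusted p under 0.05, 2 called higher by DESeq2, and 2 by limma without WT replicate 3), with sums of 6945 to 7960 in KO and 6564 to 7452 in WT. The genes next to Nox4 on chromosome 7 were taken from the RefSeq order. Tyr had 34, 28 and 18 in KO and 37, 42 and 20 in WT, Grm5 had 18, 6 and 13 in KO and 57, 96 and 9 in WT, and Ctsc had 529, 973 and 486 in KO and 493, 451 and 641 in WT. None of these 3 was called by limma, and Vmn2r77, Vmn2r78 and Vmn2r79 on the other side were below the filter.

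None of the other genes of the oxidase pathway was called by limma over all genes tested. Of those 16813 genes, 3361 had an unadjusted p under 0.05. edgeR called 238 of them higher and 234 lower in KO, DESeq2 888 and 922, and limma without WT replicate 3 called 797 and 869. Without KO replicate 3, limma called 162 higher. The counts by list below stand beside these. Among 17 further oxidase subunits and partners, 10 passed the filter and 8 of these had a higher mean log2 value in KO (median log2 difference 0.14, 3 at an unadjusted p under 0.05, none called by edgeR or DESeq2). The most abundant were Poldip2, a NOX4-binding protein, with 1868 ± 154 in KO and 1783 ± 67.8 in WT, Rac1, the general GTPase partner, with 1687 ± 75.2 in KO and 1675 ± 891 in WT, and Sh3pxd2a, an organiser of NOX enzymes in cell protrusions, with 1116 ± 218 in KO and 685 ± 125 in WT (SD, n = 3 each). The other catalytic subunits and their partners, Nox1, Nox3, Duox1, Duox2, Duoxa1, Duoxa2 and Noxo1, did not pass the filter, so that Nox4 and Cybb were the catalytic subunits tested.

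Of 13 genes that activate the phagocyte enzyme, 10 had a higher and 3 a lower mean log2 value in KO (median 0.46, 4 at an unadjusted p under 0.05, none called by edgeR and 2 by DESeq2). Arhgdia, which holds Rac proteins in the cytosol, had 2462 ± 535 in KO and 2035 ± 708 in WT. Prkcd, a protein kinase C that phosphorylates p47phox, had 329 ± 31.9 in KO and 185 ± 3.21 in WT, and was the 1 gene of this list called without WT replicate 3, while Prkca had 138 ± 34.1 in KO and 251 ± 68.9 in WT (SD, n = 3 each).

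Of 12 receptors and adaptors that trigger the oxidase, 10 had a higher mean log2 value in KO (median 0.83, 4 at an unadjusted p under 0.05, none called by edgeR and 4 by DESeq2). Itgb2, the beta chain of leukocyte integrins, had 267 ± 98.4 in KO and 141 ± 88.1 in WT. Fcgr3, an Fc receptor, had 261 ± 55.6 in KO and 144 ± 28.0 in WT, and the kinase Syk 251 ± 112 in KO and 132 ± 8.50 in WT (SD, n = 3 each). Without WT replicate 3, limma called 3 of the 12 higher in KO, Fcgr3, Fpr1 and Tyrobp, and without KO replicate 3 it called Tyrobp.

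Of 13 enzymes that remove superoxide or peroxide, 6 had a higher and 7 a lower mean log2 value in KO (median -0.16, 5 at an unadjusted p under 0.05, none called by edgeR and 2 by DESeq2). Catalase (Cat) had 33779 ± 5060 in KO and 53864 ± 15314 in WT, Gpx1, a glutathione peroxidase, 56402 ± 9273 in KO and 29704 ± 10111 in WT, and Sod1, the cytosolic superoxide dismutase, 12923 ± 7784 in KO and 24603 ± 5830 in WT (SD, n = 3 each). Without WT replicate 3, limma called Gpx1 and Sod3 higher in KO.

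TGF beta signalling is known to raise Nox4 in liver cells. Of 8 genes of that pathway, 4 had a higher and 4 a lower mean log2 value in KO (median 0.20, none at an unadjusted p under 0.05, none called by edgeR or DESeq2). The receptors Tgfbr2 and Tgfbr1 had 813 ± 220 and 397 ± 105 in KO and 1034 ± 376 and 427 ± 206 in WT, and Smad3, which carries the signal to the nucleus, had 293 ± 26.0 in KO and 304 ± 13.9 in WT (SD, n = 3 each). Without WT replicate 3, limma called 1 of the 8 higher in KO.

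**Figure D3:**
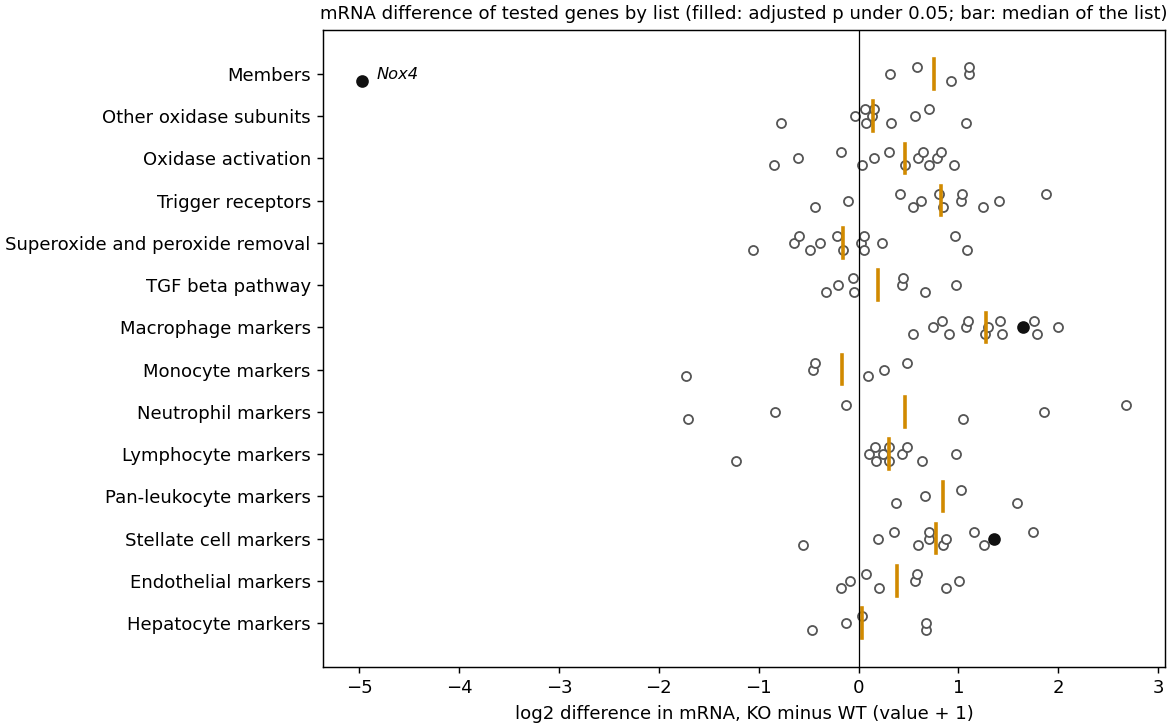
Log2 difference in mRNA (KO minus WT) of each tested gene by list, with filled points for genes called by limma and a bar at each list's median. Nox4 lies at -4.98, far left of every other gene shown, and the macrophage markers have the highest median, 1.28.

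Newly made Nox4 RNA was lower in KO by both methods. EU labelling gave 42 Nox4 reads in KO and 418 in WT, which is 7.52 RPM in KO and 38.6 RPM in WT (reads scaled to a common library total), or -2.34 as a log2 ratio centred on the median gene, with a 95% counting interval of -2.83 to -1.88. The run-on gave 18 reads in KO and 49 in WT, 7.77 RPM in KO and 15.5 RPM in WT, a ratio of -0.996 (-1.86 to -0.19). Neither interval includes 0, and both ratios were nearer 0 than the mRNA difference of -4.98. With 1 library per genotype there is no test, and the intervals cover counting error only. In EU, 23.2% of the 15131 genes with at least 20 reads were past 2-fold lower in KO and 24.9% past 2-fold higher, and 11.3% of genes had a ratio below that of Nox4. In Br, 7.01% of 15449 genes were past 2-fold lower and 7.49% past 2-fold higher, and 7.07% had a ratio below that of Nox4, which itself fell just short of 2-fold.

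Nascent RNA of the phagocyte subunits rested on few reads and differed between the methods. Cybb had 115 EU reads in KO and 28 in WT, a ratio of 3.01 (2.41 to 3.67), and 9 Br reads in KO and 13 in WT, a ratio of -0.08 (-1.49 to 1.26). Ncf1 had 54 EU reads in KO and 9 in WT, a ratio of 3.56 (2.53 to 4.77), and 24 Br reads in KO and 18 in WT, a ratio of 0.86 (-0.08 to 1.83). Both genes were thus higher in KO by EU beyond counting error, which the Br intervals do not show.

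Rac2 had 55 Br reads in KO and 32 in WT, a ratio of 1.23 (0.58 to 1.91), and only 1 EU read in KO and 12 in WT. Cyba had 19 Br reads in KO and 39 in WT, a ratio of -0.59 (-1.46 to 0.24), and 0 EU reads in KO, which allows up to 0.537 RPM, and 4 in WT, or 0.369 RPM. Ncf4 had 7 Br reads in KO and 13 in WT, a ratio of -0.44 (-2.01 to 0.99), and 1 EU read in each. For Rac2, Cyba and Ncf4 no EU ratio is given, as each had under 20 reads in both libraries together. The counting interval of the EU log2 ratio was -8.03 to 0.15 for Rac2, which lies below its Br interval, and -5.32 to 7.27 for Ncf4, and for Cyba it reached up to 1.58. Past 2-fold in EU were Cybb and Ncf1 upwards and Nox4 downwards, of 3 members with enough reads, and in Br Rac2 upwards, of 6. The shares over all genes were 24.9% upwards and 23.2% downwards in EU, and 7.49% upwards and 7.01% downwards in Br.

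Of the 5 hepatocyte markers, 4 had a nascent ratio below 0 in EU and 3 in Br, with Tat and Hnf4a the lowest. Tat, an amino acid enzyme of hepatocytes, had a ratio of -2.16 (-2.21 to -2.11) in EU, close to that of Nox4, and of -1.70 (-1.76 to -1.64) in Br, further below 0 than that of Nox4. Hnf4a, a hepatocyte transcription factor, had -1.30 (-1.34 to -1.25) in EU and -0.41 (-0.51 to -0.32) in Br. Ttr had 0.016 in EU and 0.17 in Br, and Apoa1 had -0.033 in EU and 0.33 in Br. The mRNA of Tat overlapped between KO and WT, with a log2 difference of 0.67 (SE 0.49). The median of the 5 hepatocyte markers was -0.43 in EU and -0.17 in Br. Of 12 stellate cell markers, 10 had enough EU reads, with 8 above and 2 below 0 and a median of 1.91, and 11 had enough Br reads, all 11 above 0 with a median of 1.00. The part of these cells in the members' nascent values was not tested, nor was that of leukocytes and macrophages.

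Of the 4 leukocyte markers 3 had enough EU reads, and all 3 were past 2-fold higher in KO, Ptprc with 27 reads in KO and 10 in WT among them (ratio 2.41, 1.32 to 3.62). In Br the median ratio of 3 such markers was 0.06, and Ptprc had 23 reads in KO and 31 in WT (0.02, -0.83 to 0.84). Of 14 macrophage markers, 12 had enough EU reads, 6 of them past 2-fold higher and 3 past 2-fold lower in KO, with a median ratio of 0.95. In Br 13 had enough reads, with 1 past 2-fold in each direction and a median of 0.23. Over all genes with enough reads, 24.9% were past 2-fold higher and 23.2% past 2-fold lower in EU. In Br these shares were 7.49% and 7.01%.

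**Figure D4:**
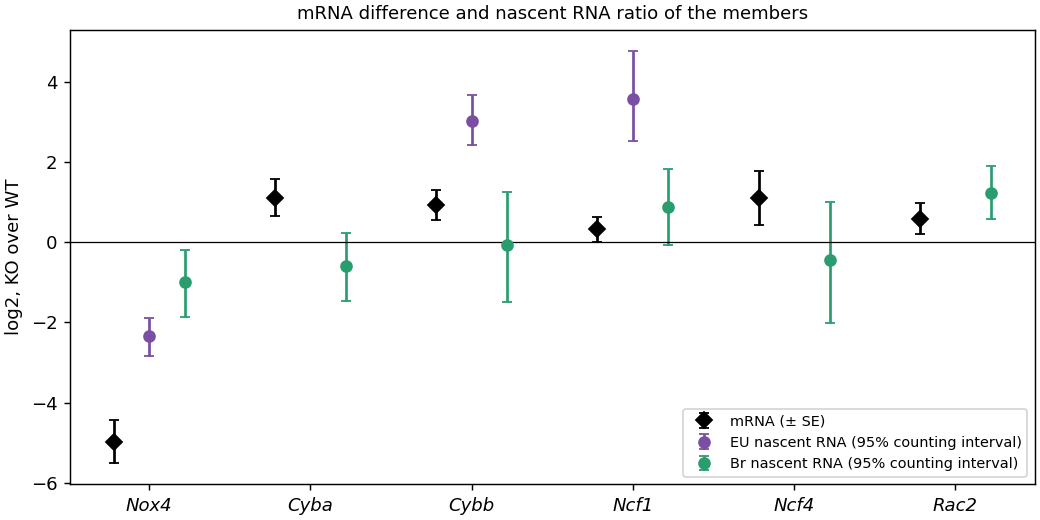
Log2 of KO over WT for the 6 members: fitted mRNA difference ± SE (diamonds, 3 libraries each), and EU and Br nascent RNA ratios with 95% counting intervals (circles, 1 library each), with EU left out for genes under 20 reads. Nox4 is below 0 in all 3, at -4.98, -2.34 and -0.996, and Cybb and Ncf1 are high in EU, at 3.01 and 3.56.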

How the data were processed

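Members and gene lists were chosen with earlier results of these data known. The submitters' processing notes name TopHat2, Bowtie2, Cufflinks, DESeq and mm9; for the counter and annotation, the sources used here name none. The mRNA values are a score: reads the authors scaled between the 6 libraries and deposited as whole numbers. The deposited nascent RNA files hold counts. All Br values are even and were divided by 2. The authors also deposited RPKM for the nascent libraries, used as an alternative. Groups came from sample titles.

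Because scaled values were found, limma 3.58.1 (R 4.3.3, eBayes with trend and robust) was fitted to log2(value + 1) over 16813 genes with at least 10 in at least 3 libraries, two-sided, with Benjamini-Hochberg adjustment and a threshold of 0.05. Fold changes are on that scale. Reads were re-estimated from the pattern in which each library skips or doubles low whole numbers, for edgeR 4.0.16 and DESeq2 1.42.0. The limma script was tested on simulated data. Nascent ratios are of RPM (reads over the library total, scaled), for genes with at least 20 reads, centred on the median gene (before centring -0.02 in EU and -0.0038 in Br), with exact Clopper-Pearson 95% intervals. A count of 0 allows up to 3 counts.

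Named were the members, called genes of the lists, the 3 most abundant others per list, the 5 genes most like Nox4 and Cybb, and the 3 protein-coding genes on either side of Nox4. Some genes that this rule names are not reported here. Symbols came from GENCODE vM21 and RefSeq tables (GRCm38.p6), covering 32860 IDs. Alternatives were other pseudocounts, filters, TMM scaling, a replicate block and each library left out.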

Additional observations from a re-analysis of the deposited data

Results flagged for a closer look

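Nascent Cybb RNA had ratios of opposite sign by the 2 methods: the centred log2 ratio of KO over WT was 3.01 in EU and -0.08 in Br, and the Br value rests on 9 reads in KO and 13 in WT, with an interval that includes 0. The difference between the methods was not tested, since each has 1 library per genotype.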

How the results depend on the processing

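Nox4 mRNA was lower in KO and called under all 14 alternatives run, with log2 differences from -5.36 to -4.17. The other 5 members kept their sign in all 70 of theirs, and none was called in any. All 27 alternatives for the members' nascent ratios lay within the counting interval. The number of genes called was less steady. Against 227 higher and 228 lower in KO, DESeq2 on re-estimated reads gave 888 and 922 and the replicate block 500 and 514, and with a library left out it ran from 13 to 797 higher and from 15 to 869 lower, the most without WT replicate 3. The cause was not tested. Same-numbered KO and WT libraries did not all deviate together (r 0.409, -0.242 and 0.198). This does not settle whether the numbers pair them, as deviations from a mean of 3 libraries are tied to each other. The block changed no call among the members. Among the gene lists, without a filter on low values limma called 4 macrophage markers, 1 stellate marker and 1 trigger receptor higher and 1 neutrophil marker lower. Over all 30020 genes tested without that filter, 306 were called higher and 315 lower. With the replicate block it called 5 macrophage markers, 3 stellate markers, 1 endothelial marker, 1 trigger receptor and 1 removal enzyme higher and 1 monocyte marker lower. Members with under 20 nascent reads have no ratio.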
